A study of Mus musculus with 2 samples.

Results

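The genes described here encode the proteasome, its regulators and its assembly chaperones, in TR1 cells (type 1 regulatory T cells, CD4 T cells that make IL-10) from the mouse small intestine. Members were all genes whose symbol begins with Psm, a letter from a to g and a number, on probe sets that the platform annotation gives to exactly 1 gene. That found 50 of the 19937 genes named on the array. For a gene with several probe sets the brightest, averaged over both arrays, was taken. Of the 50, Psmc3ip (a recombination factor) and Psme3ip1 (a partner of an activator subunit) share the name pattern but are not proteasome subunits.

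RNA of 2 samples was hybridised to 1 array each. The wildtype sample is from mice whose IL-10 receptor is intact, and the impaired sample from mice with the CD4-DNIL-10R transgene, by its name a dominant-negative IL-10 receptor driven by Cd4 control sequences, which are active in T cells. All mice had received 15 μg of anti-CD3 antibody into the peritoneum 2 times, and were killed either 4 or 48 hours later. Strain, age, the number of mice pooled, the sort and the time that applies to each sample are not stated in the labels. Values are RMA expression on the log2 scale, and each difference is impaired minus wildtype. With 1 array per genotype there was no spread between replicates, so no difference could be tested, and the values describe these 2 arrays. In a bulk sample, fewer cells of a type and less RNA per cell cannot be told apart.

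The proteasome is the protease that degrades ubiquitin-tagged proteins in the cytosol and nucleus. Its barrel-shaped core is made of outer rings of alpha subunits, which gate the entry, and inner rings of beta subunits, some of which carry the active sites. A regulatory particle on the end of the barrel binds ubiquitin, unfolds the substrate with a ring of ATPases and feeds it in. In immune cells, and under interferon gamma, the catalytic subunits Psmb5, Psmb6 and Psmb7 are replaced by Psmb8, Psmb9 and Psmb10. This form, the immunoproteasome, is known for making peptides for MHC class I and is abundant in lymphocytes.

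Most proteasome genes were slightly dimmer in the impaired sample, and the alpha ring and the non-catalytic beta subunits were the groups with the lowest medians when each gene was taken by its brightest probe set. A gene counted as expressed when its brighter sample reached 6.91, the middle value of the probe sets' means. Of the 50 members 46 did, and all 46 lay above that floor in both samples. The other 4, Psma8 and Psmb11 (core subunits of testis and thymus), Psmg3 and Psmc3ip, stayed below it. Of the 46 expressed members 37 were below 0, with a median difference of -0.13. Among all 11124 expressed genes 49.5% were below 0 and the median was 0.0025. Bright genes as a whole leaned the same way, and 43 of the members were bright. Among the 5949 genes above a stricter floor of 8.86, 59.1% were below 0 (median -0.052), against 35 of the 43 members (median -0.14). After a centring that removes the dependence on brightness, 31 of the 46 members were below 0 (median -0.068), against 46% of genes (median 0.025), and 11 of the 46 were at least 1.2-fold dimmer, against 11.8% of genes.

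**Figure D1:**
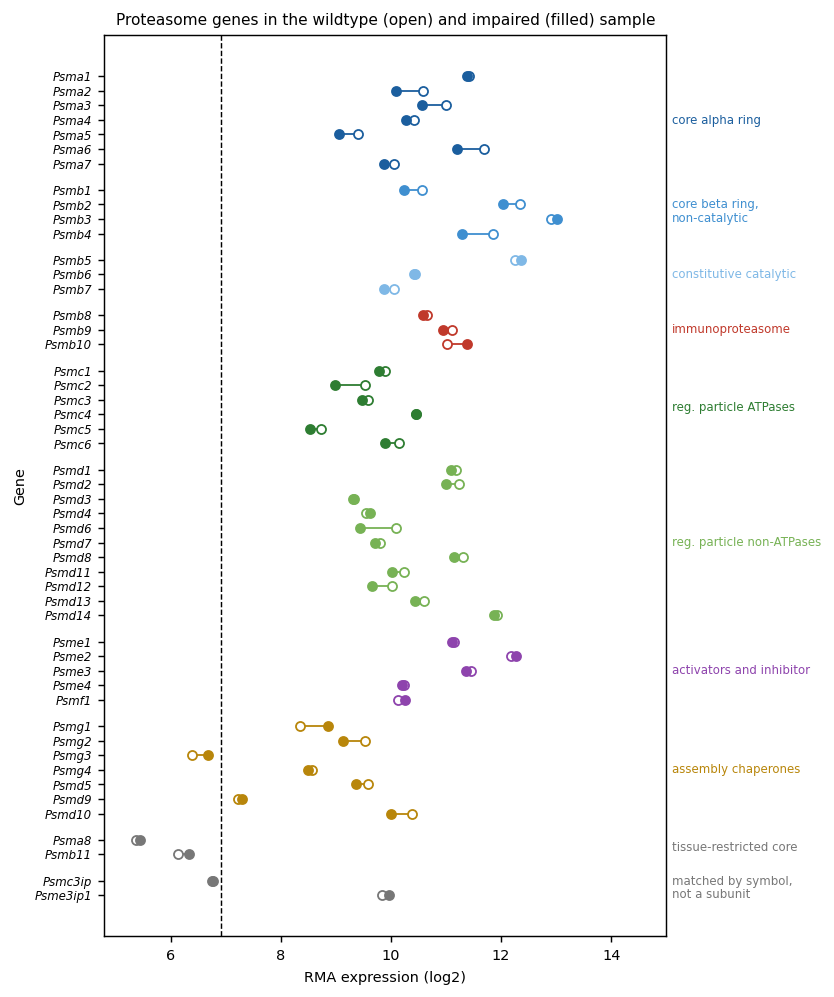
RMA expression (log2, x axis) of each of the 50 genes (y axis) in the wildtype sample (open circle) and the impaired sample (filled circle), 1 array each, by group. The dashed line is the floor of 6.91. For every alpha ring gene the filled circle lies left of the open one (Psma1 turns after the brightness-dependent centring), while for Psmb10 and Psmg1 it lies to the right.

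The sizes were small. A rule of at least 1.2-fold (0.26 on the log2 scale) took in 12 of the 46 as dimmer, where it took in 14.2% of all expressed genes and 16.4% of those above the stricter floor. It took in 2 as brighter, Psmb10 and Psmg1, against 17.5% of expressed genes and 11.4% above the stricter floor. Only Psmd6 was more than 1.5-fold dimmer (background 1.5%), no member was 1.5-fold brighter (5.89%), and no member reached 2-fold in either direction (background 0.198% dimmer and 1.46% brighter). The spread among members was an interquartile range of 0.28, against 0.34 for all expressed genes. Above the stricter floor it was 0.30 for the members and 0.30 for all genes.

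By part of the complex, the 14 constitutive core genes had a median of -0.25 with 12 below 0. The 17 regulatory particle genes had a median of -0.16 with 16 below 0. The 3 immunoproteasome genes had a median of -0.071 with 2 below 0. Of all expressed genes 49.5% were below 0, and of those above the stricter floor 59.1%. After the brightness-dependent centring these counts were 10 of 14, 14 of 17 and 2 of 3, against 46% of genes. The medians were then -0.18, -0.10 and -0.0076. With averaged probe sets in place of the brightest, and no centring, the medians were -0.20, -0.17 and -0.071. Whether the parts differ from each other could not be tested.

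**Figure D2:**
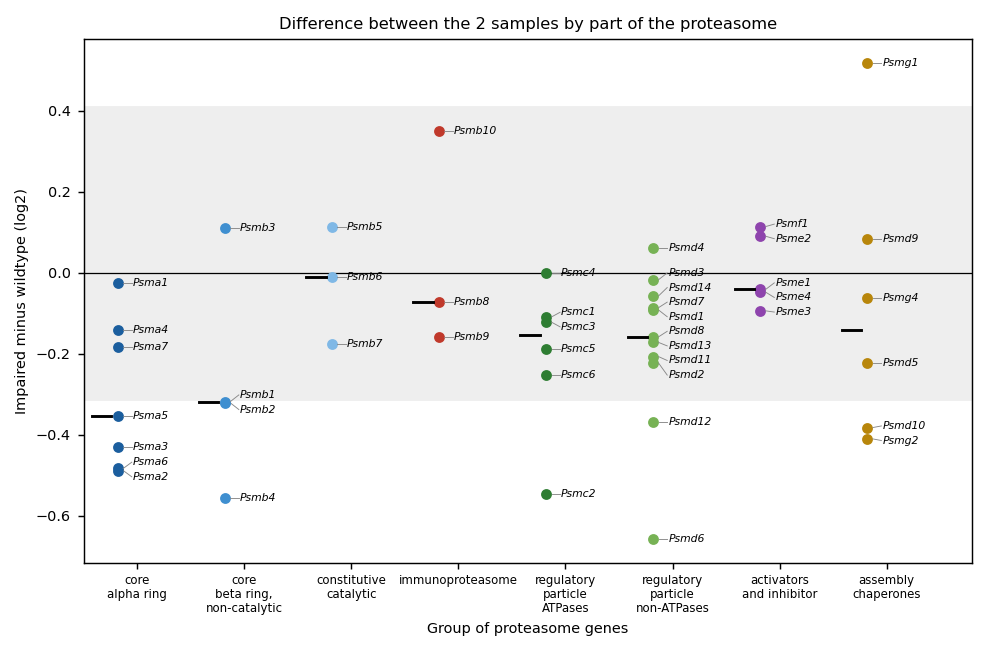
Log2 difference, impaired minus wildtype (y axis), of the expressed members of each group (x axis); each point is 1 gene and each bar the group's median. The grey band holds the middle of all expressed genes, from their 10th percentile (-0.315) to their 90th (0.409). Of the members below the band, most are core subunits, and Psmd6 is the lowest.

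Within the alpha ring, which forms the gate of the core, all 7 genes were dimmer in the impaired sample (median -0.35), and 4 of the 7 passed 1.2-fold. Among all expressed genes 49.5% were below 0 and 14.2% at least 1.2-fold dimmer. Above the stricter floor these shares were 59.1% and 16.4%. Psma2 read 10.58 on the wildtype array and 10.09 on the impaired one, a difference of -0.49 (1.40-fold). Psma6 was at 11.69 and 11.20, a difference of -0.48. Only 2.79% and 2.88% of expressed genes had a lower difference than these genes. Psma3 went from 10.99 to 10.56 (-0.43), and Psma5 from 9.41 to 9.05 (-0.35). Psma7 (-0.18) and Psma4 (-0.14) differed less, and Psma1 was nearly level at 11.41 and 11.38. After the brightness-dependent centring Psma1 was at 0.030, so that 6 of the 7 were below 0.

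Some of these genes had further probe sets, which the rule did not use. Those of Psma3 stood at -0.46 and -0.38, close to the -0.43 of the one used. The second of Psma5 stood at -0.06 against -0.35, so the size for Psma5 depends on the probe set. With its probe sets averaged, Psma5 was at -0.21 and no longer passed 1.2-fold. With the mean of each gene's probe sets the ring's median became -0.21, level with that of the regulatory particle ATPases (also -0.21), so it was no longer clearly among the lowest. In the annotation the 3 probe sets of Psma3 share all 5 of their transcript accessions, and the pair of Psma5 shares 2 of 6, so the table does not say how they differ.

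Among the beta subunits without active sites, 3 of 4 were at least 1.2-fold dimmer. The same rule took in 14.2% of all expressed genes and 16.4% of those above the stricter floor. Psmb4 had the largest difference of the core, from 11.85 on the wildtype array to 11.29 on the impaired one (-0.56, 1.47-fold). Psmb2 was at 12.35 and 12.03 (-0.32), and Psmb1 at 10.56 and 10.25 (-0.32). Psmb1 no longer passed 1.2-fold after the brightness-dependent centring (2 of 4 did, against 11.8% of genes). Psmb3 went the other way, at 12.91 and 13.02, and both of its probe sets differed by 0.11.

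The constitutive catalytic subunits stood near 0. Psmb5, the chymotrypsin-like subunit, read 12.24 on the wildtype array and 12.36 on the impaired one (0.11). Psmb6, the caspase-like subunit, was at 10.43 and 10.42 (-0.011). Psmb7, the trypsin-like subunit, was at 10.05 and 9.88 (-0.18). None of the 3 passed 1.2-fold, and their median of -0.011 became 0.054 after the brightness-dependent centring.

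Their immunoproteasome counterparts did not move as a block. Psmb8, which takes the place of Psmb5, read 10.66 on the wildtype array and 10.59 on the impaired one (-0.071). Psmb9, which takes the place of Psmb6, was at 11.10 and 10.94 (-0.16). Psmb10, which takes the place of Psmb7, was at 11.02 and 11.37 (0.35, 1.27-fold), and was the only core subunit at least 1.2-fold brighter in the impaired sample. Of all expressed genes 87.5% had a lower difference than Psmb10. The difference of Psmb8 minus that of Psmb5 was -0.19, that of Psmb9 minus Psmb6 was -0.15, and that of Psmb10 minus Psmb7 was 0.52. The median of the 3 pairs was -0.15, so no common shift from constitutive to immuno subunits was seen in these arrays. Levels of different genes are not compared, since probe sets differ in brightness for reasons of sequence.

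Start regions of the first 2 catalytic pairs are printed because interferon acts on the immuno subunits through their promoters. The window of Psmb10 held none of the motifs below and is not printed, and no window was matched for Psmb7. RefSeq windows (GRCm38.p6, 250 bases before to 50 after each start) were found for 42 of the 50 members. Searched on both strands were the interferon gamma element GAS (TTCNNNGAA), the interferon element ISRE (GAAANNGAAA), the antioxidant response element (TGACNNNGC) through which NRF factors drive proteasome genes, and the CCAAT box (CCAAT). Each line holds bases upstream of the start only, 5′ to 3′ on the gene's strand, with matches in capitals.
Psmb8 (chr17:34197945-34198194, plus strand): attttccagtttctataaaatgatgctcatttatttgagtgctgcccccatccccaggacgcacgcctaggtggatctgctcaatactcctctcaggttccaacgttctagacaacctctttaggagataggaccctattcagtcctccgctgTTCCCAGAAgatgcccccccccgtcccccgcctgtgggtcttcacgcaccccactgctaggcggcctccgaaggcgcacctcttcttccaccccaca
Psmb9 to Tap1 (chr17:34187331-34187555, minus strand): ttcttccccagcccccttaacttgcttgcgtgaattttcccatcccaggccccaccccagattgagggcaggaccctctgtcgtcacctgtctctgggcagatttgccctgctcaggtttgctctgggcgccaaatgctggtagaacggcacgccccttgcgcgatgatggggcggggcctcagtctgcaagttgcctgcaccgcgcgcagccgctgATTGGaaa
Psmb5 (chr14:54617996-54618245, minus strand): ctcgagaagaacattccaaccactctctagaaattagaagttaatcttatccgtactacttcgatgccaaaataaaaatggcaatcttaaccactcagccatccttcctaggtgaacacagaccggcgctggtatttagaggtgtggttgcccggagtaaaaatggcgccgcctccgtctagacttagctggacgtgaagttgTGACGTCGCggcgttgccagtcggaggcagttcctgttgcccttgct
Psmb6 (chr11:70525107-70525356, plus strand): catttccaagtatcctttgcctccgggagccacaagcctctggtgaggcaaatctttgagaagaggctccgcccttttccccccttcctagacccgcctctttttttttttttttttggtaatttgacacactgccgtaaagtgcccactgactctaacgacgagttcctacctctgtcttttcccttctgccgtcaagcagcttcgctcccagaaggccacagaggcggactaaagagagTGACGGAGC
The capitals mark a GAS match in Psmb8 (bases -97 to -89), a reversed CCAAT box in Psmb9 (-8 to -4), and antioxidant element matches in Psmb5 (-47 to -39) and Psmb6 (-9 to -1). The Psmb9 line is the whole stretch of 225 bases between the start of Psmb9 and that of Tap1, the peptide transporter gene that runs the opposite way. Tap1 was at 11.18 and 11.35 (0.16), and Psmb9 at -0.16, so the genes on either side of this stretch lay on opposite sides of 0.

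The motifs were counted over all windows. GAS was in 3 of 42 members (7.1%) and 9.6% of all 27025 genes with a window. All 42 members are protein-coding, but only 17491 of the 27025 genes are, so the shares come from unlike sets. ISRE was in 5 members (11.9%) and 4.0% of genes, the antioxidant element in 6 (14.3%) and 14.0%, and the CCAAT box in 16 (38.1%) and 41.1%. The members' share was above that of all genes for ISRE, within 3 percentage points of it for the others, and rests on few genes. The 5 members with an ISRE match were Psmb3 (difference 0.11), Psmd4 (0.061), Psmd9 (0.083), Psme1 (-0.041) and Psmg4 (-0.063), none of which passed 1.2-fold. A match is a run of letters and not a measured binding site.

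In the regulatory particle, the ATPases that unfold substrates were all at or below 0. Psmc2 was the lowest, at 9.53 on the wildtype array and 8.99 on the impaired one (-0.55, 1.46-fold). Psmc6 followed, at 10.14 and 9.89 (-0.25). Psmc5 (-0.19), Psmc3 (-0.12) and Psmc1 (-0.11) differed less, and Psmc4 was level at 10.45 in both (-0.0010). The median of the 6 was -0.15. The second probe set of Psmc1 stood at -0.37. After the brightness-dependent centring 5 of the 6 were below 0.

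Of the 11 non-ATPase subunits 10 were below 0, with a median of -0.16. Psmd6, a subunit of the lid, had the lowest value of all members, at 10.09 on the wildtype array and 9.43 on the impaired one (-0.66, 1.58-fold). Only 0.881% of expressed genes had a lower difference. Psmd12, also in the lid, was at 10.03 and 9.66 (-0.37). The scaffold subunits Psmd2 (-0.22) and Psmd1 (-0.092) differed less. Psmd11 stood at -0.21, Psmd13 at -0.17, Psmd8 at -0.16 and Psmd7 at -0.086. Psmd14, the deubiquitinase that cuts the chain from the substrate, was nearly level at 11.93 and 11.87 (-0.057), as was Psmd3 (-0.017). Psmd4, a ubiquitin receptor, was the only one above 0, at 9.55 and 9.61 (0.061).

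**Figure D3:**
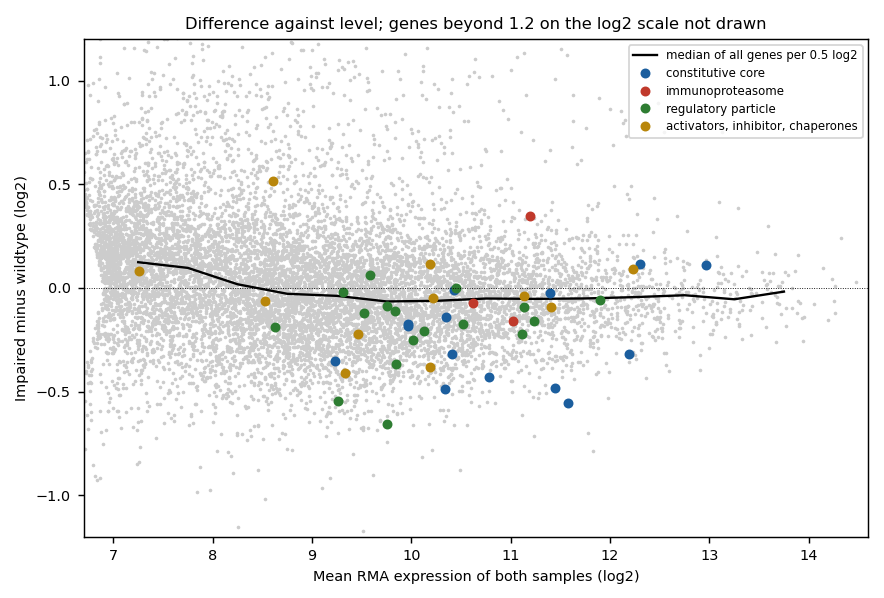
Log2 difference, impaired minus wildtype (y axis), against the mean of both samples (x axis) for all expressed genes (grey points) and the proteasome genes (coloured by part); genes beyond 1.2 on the log2 scale are not drawn. The line is the median of all genes in steps of 0.5 log2: among bright genes it lies slightly under 0, and most core and regulatory particle genes lie lower still.

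The activators and the inhibitor that bind the ends of the core had the narrowest range of any group. Psme1 and Psme2 form the PA28 activator, which interferon gamma induces along with the immunoproteasome. Psme1 read 11.15 on the wildtype array and 11.11 on the impaired one (-0.041), and Psme2 at 12.18 and 12.27 (0.090). A probe set shared by Psme2 and Psme2b, left out by the rule, stood at 0.21. Psme3, a nuclear activator, was at 11.45 and 11.36 (-0.094), Psme4, the PA200 activator, at -0.048, and Psmf1, an inhibitor of the core, at 10.13 and 10.25 (0.11). All 5 lay between -0.094 and 0.114, none passed 1.2-fold, and their median was -0.041, or 0.018 after the brightness-dependent centring.

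Assembly chaperones were the most scattered group (median -0.14 over 6, standard deviation between genes 0.35). Psmg1 and Psmg2 form a pair that builds the alpha ring, and they lay on opposite sides of 0. Psmg1 read 8.35 on the wildtype array and 8.87 on the impaired one (0.52, 1.43-fold), the highest difference of all members. Psmg2 was at 9.53 and 9.12 (-0.41). Psmd10 (gankyrin), a chaperone of the ATPase ring, was at 10.38 and 9.99 (-0.38), and Psmd5 and Psmd9, which serve the same ring, stood at -0.22 and 0.083. Psmg4 was at -0.063. Its partner Psmg3, below the floor at 6.38 and 6.67, differed by 0.29. With the stricter floor 4 chaperones were left, with a median of -0.30.

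Genes that work with the proteasome were counted from lists. Of 11 measured partners and controllers, 9 were below 0 (49.5% of all expressed genes were), with a median of -0.17. At least 1.2-fold dimmer were 2 of the 11, a share near the 14.2% of all expressed genes. Sem1, a small subunit of the lid whose symbol lies outside the naming rule, read 10.05 on the wildtype array and 9.49 on the impaired one (-0.56). Uchl5, a deubiquitinase on the regulatory particle, was at 9.06 and 8.71 (-0.35). Ecpas, an adaptor that binds the whole complex, and Pomp, which matures the core, both stood at -0.22. Nfe2l1, the transcription factor that raises proteasome genes when the proteasome is blocked, was level at 10.02 and 10.01. After the brightness-dependent centring 7 of the 11 were below 0 (median -0.10), against 46% of genes.

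Ubiquitin supply and delivery genes had a median of -0.11, with 8 of 11 below 0 and 4 at least 1.2-fold dimmer. Among all expressed genes 49.5% were below 0 and 14.2% at least 1.2-fold dimmer. Above the stricter floor 9 of them were left, with a median of -0.24. Ufd1, which works with the unfolding ATPase Vcp, was at 9.95 and 9.48 (-0.47). Uba6, a ubiquitin-activating enzyme, was at 10.62 and 10.17 (-0.45), Vcp itself at 11.35 and 11.04 (-0.32), and its adaptor Nsfl1c at 10.01 and 9.74 (-0.27). None of this list was 1.2-fold brighter, against 17.5% of all expressed genes. After the brightness-dependent centring 6 of the 11 were below 0, against 46% of genes. At least 1.2-fold dimmer were then 2 of the 11, against 11.8% of genes.

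Interferon gamma response genes lay on the other side of 0. Of 12 expressed, 11 were above 0 (50.2% of all expressed genes were), with a median of 0.18. At least 1.2-fold brighter were 3 of the 12, against 17.5% of all expressed genes. Cxcl10, a chemokine, read 10.41 on the wildtype array and 11.07 on the impaired one (0.67). The transcription factors Irf8 (0.37) and Irf1 (0.28, or 0.43 when its probe sets were averaged) and the GTPase Gbp7 (0.24) followed. Among proteasome genes that the same cytokine is known to induce, Psmb10 was also above 0 (0.35), while Psmb8, Psmb9, Psme1 and Psme2 lay between -0.16 and 0.090. MHC class I loading genes had a median of -0.037 with 5 of 9 below 0, or 0.0018 with 4 of 9 below 0 after the brightness-dependent centring. Nlrc5, the class I transactivator, was at 11.37 and 11.97 (0.60), or 0.23 when its probe sets were averaged, while Pdia3 (-0.25) and Erap1 (-0.24) were lower and Tap1 higher (0.16).

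**Figure D4:**
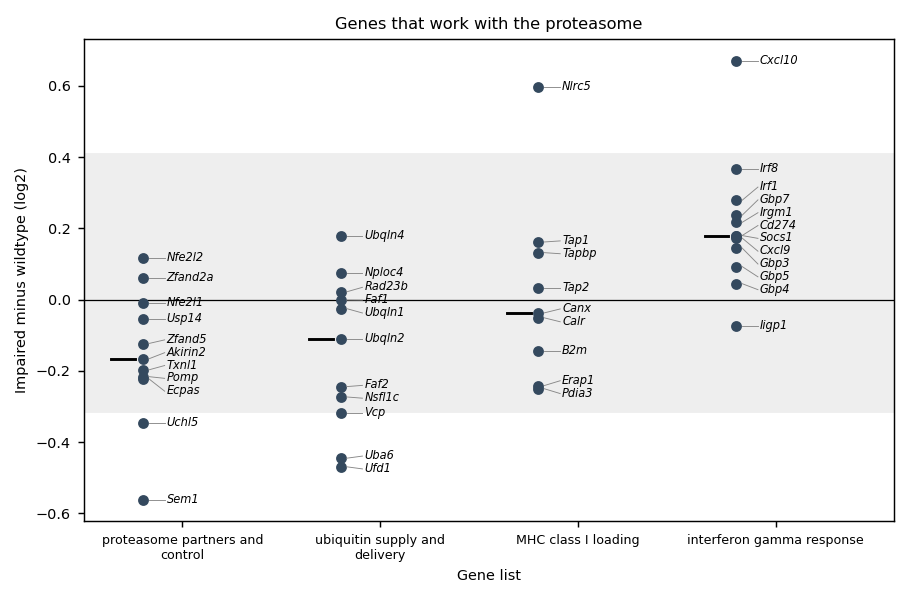
Log2 difference, impaired minus wildtype (y axis), of expressed genes in 4 lists of genes that work with the proteasome (x axis); each point is 1 gene, each bar a list's median, and the grey band runs from the 10th to the 90th percentile of all expressed genes. Most partners of the proteasome lie below 0, and 11 of 12 interferon gamma response genes above it.

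Markers of other cell types also differed between the 2 arrays. T cell markers (11 expressed) had medians of 12.02 on the wildtype array and 11.90 on the impaired one, and TR1 markers (8) of 12.36 and 12.25, so transcripts of the labelled cell type were bright in both. Gene by gene, the median difference was -0.019 for T cell markers (4 above 0, 7 below) and -0.0325 for TR1 markers (2 above, 6 below). After the brightness-dependent centring these median differences were 0.0275 and 0.0125. Markers of other cells are given over all genes measured, with no floor, as the wildtype and then the impaired median. With no floor, 10274 of all 19937 genes were brighter in the impaired sample and 9491 dimmer. All 14 enterocyte markers were brighter in the impaired sample (10.01 and 10.93), as were all 10 goblet and Paneth cell markers (10.70 and 11.94) and all 10 neutrophil markers (6.93 and 8.57). Of these, 14, 8 and 5 lay above the floor on both arrays. All 8 macrophage and monocyte markers and 7 of 8 B cell markers were brighter too, but most were dim, with 2 of each above the floor on both arrays. Of 8 dendritic cell markers 6 were brighter and 2 dimmer. Only 2 of those 8 lay above the floor on both arrays, 1 brighter and 1 dimmer. Of 12 pancreatic acinar markers 11 were dimmer (8.94 and 7.64), and 10 lay above the floor on both arrays. Every cell makes proteasomes, and interferon-induced genes are also made by epithelial and myeloid cells. The part of these cells in the proteasome differences was not tested.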

How the data were processed

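RNA of 2 samples was measured on 1 Affymetrix array each. Per the labels' protocols TRIzol LS was used for extraction and oligo(dT) for reverse transcription, and the product was labelled with biotin. The deposited values are on the log2 scale for 34760 probe sets, made by the authors with affy and RMA per the submitters' processing notes. RMA equalises the arrays' distributions and compresses differences of dim probe sets. For versions and genome build, nothing is given in the sources used here. No scanner files, and so no detection calls, were used.

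Probe sets were named through GEO's platform annotation: 21640 had 1 symbol, 1321 several and 11799 were not listed. All 50 members matched RefSeq by Entrez identifier. A gene passed the floor when its brighter sample reached 6.91. With 1 array per genotype no test was made, and genes were counted by size (1.2-fold, 1.5-fold, 2-fold). The number of arrays limits the precision. Named were all catalytic subunits, PA28, every member past 1.2-fold, the extremes of each group, the 4 related genes per list with the largest differences, and further genes chosen after their values were seen. The members and lists were chosen with earlier results of these data known. Scripts were tested on simulated data (Python 3.11.15, numpy 2.4.6, pandas 2.3.3, statsmodels 0.14.6, matplotlib 3.10.9). Alternatives were loess centring against brightness (span 0.2), an offset of 32 before taking logs, averaged probe sets, no floor, and a floor at the 75th percentile (8.86).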

Additional observations from a re-analysis of the deposited data

How the results depend on the processing

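The median of each group of members, the median of the catalytic pairs and both 1.2-fold counts were recomputed under 5 processing alternatives, as were, in a choice made after seeing the data, the medians of the lists of related genes, and a median was taken as moved when it shifted by 0.1 or more. The median of the alpha ring moved from -0.35 to -0.21 with the mean of all probe sets, and that of the assembly chaperones from -0.14 to -0.30 with the stricter floor, which left fewer genes. That floor also moved the ubiquitin list from -0.11 to -0.24. The counts of 12 dimmer and 2 brighter members became 1 and 0 under the 1.5-fold rule, and 0 and 0 under the 2-fold rule. No member or related gene past 1.2-fold changed sign under these alternatives. Loess centring shifted no median by 0.1 or more, but some small medians changed sign under it. That of the constitutive catalytic genes went from -0.011 to 0.054, and that of the activators from -0.041 to 0.018. That of the MHC class I list went from -0.037 to 0.0018. No paired analysis was possible because there is 1 array per genotype and the labels give no replicate numbers.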

Other observations

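Some proteasome genes share their start region with a gene that runs the opposite way. In RefSeq windows of 300 bases, 7 of 42 members (16.7%) overlapped the window of another protein-coding gene on the other strand, against 7.7% of all 17491 protein-coding genes with a window. Psmd10 and its neighbour Atg4a, an autophagy protease, were both dimmer in the impaired sample. Psmd10 was at 10.38 and 9.99 (-0.38), and Atg4a at 10.84 and 10.41 (-0.44). Psma2 (-0.49) and Mrpl32, a mitochondrial ribosomal protein (8.98 and 8.84, -0.14), and Psmc5 (-0.19) and Ftsj3 (-0.14), also lay on the same side of 0. The other 4 pairs lay on opposite sides: Psma7 (-0.18) and Ss18l1 (0.39), Psmd13 (-0.17) and Sirt3 (0.34), Psmb9 (-0.16) and Tap1 (0.16), and Psme3ip1 (0.12) and Rspry1 (-0.32). Neighbours thus shared the sign in 3 of 7 pairs. The 42 members with a window include Psmc3ip and Psme3ip1, which are not proteasome subunits. Psme3ip1 is also among the 7 that share a window.

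The stretch between the starts of Mrpl32 and Psma2, the alpha ring gene with the lowest difference, spans 204 bases, shown on the strand of Psma2 with its CCAAT box in capitals.
Psma2 (chr13:14613038-14613241, plus strand): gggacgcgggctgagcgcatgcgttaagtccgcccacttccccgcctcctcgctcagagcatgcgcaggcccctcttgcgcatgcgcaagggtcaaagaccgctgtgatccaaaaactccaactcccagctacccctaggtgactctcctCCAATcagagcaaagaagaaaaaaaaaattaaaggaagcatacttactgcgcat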
